A study of Rattus norvegicus with 10 samples.

Results

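Protein phosphatases were followed in cultured rat Sertoli cells through a time course of follicle-stimulating hormone (FSH). Members were the probe sets whose only gene symbol began with Ptpn or Ptpr, was Ptp4a1, Ptp4a2 or Ptp4a3, or began with Ppp and a digit. This took 95 of 8740 probe sets, for 60 genes. Tyrosine phosphatases made up 54 probe sets of 31 genes, and serine/threonine phosphatases with their regulatory subunits made up 41 probe sets of 29 genes. Of these, 23 tyrosine probe sets (15 genes) and 30 serine/threonine probe sets (23 genes) were bright enough to test, 53 in all for 38 genes. No probe set carried the symbol Ptp4a3.

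The cells came from 20-day-old rats and were grown in vitro, and total RNA was hybridised to 10 arrays. Untreated cells at 0 h were the control, and FSH had been present for 2, 4, 8 or 24 h in the other groups, with 2 arrays (n = 2), replicate 1 and replicate 2, in each group. The labels give no FSH dose, no rat strain and no untreated cells later than 0 h, so FSH and time in culture cannot be told apart. They do not say whether replicates were separate cultures, so each p-value reflects nothing more than the spread of the arrays at hand, possibly a technical one. In cultures that may hold more than 1 cell type, fewer cells of a type and less RNA per cell cannot be told apart either.

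Protein tyrosine phosphatases remove phosphate from tyrosine through a catalytic cysteine, and they comprise receptor-type enzymes in the plasma membrane, non-receptor enzymes inside the cell and the small prenylated PRL enzymes encoded by the Ptp4a genes. Serine/threonine phosphatases work differently: a few metal-dependent catalytic subunits pair with many regulatory subunits that set their place and substrate. FSH acts on Sertoli cells through a receptor that raises cAMP and activates protein kinase A, whose phosphorylated substrates, such as the transcription factor CREB, are reset by phosphatases.

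CREB binds the cAMP response element, whose full palindrome is TGACGTCA and whose shorter form is TGACG. Both were searched on both strands of the 250 bases before each gene's annotated start in RefSeq promoter sequences of the rat build GRCr8, with the shorter form also counted inside the palindrome. Of the 60 member genes, 53 had an entry, with 56 windows. Ppp2cb and Ppp2r2a were among those without one. The palindrome lay in 3 windows (5.36%), those of Ppp1r15a, Ptprs and Ptpru, against 1.59% of all 33469 promoters in the table. The shorter form lay in 17 windows (30.4%) against 18.2% of all promoters, and at least 2 copies lay in 7 (12.5%) against 3.98%. A palindrome alone counts as 2 copies, which is how the Ptprs and Ptpru windows came into the 7. The shorter form lay in 23.3% of tyrosine and 38.5% of serine/threonine windows, and at least 2 copies in 20% and 3.85%. The shares over all promoters were not matched to the members for base composition. Promoters of 4 genes are shown, each 5′ to 3′ and ending at the base before the start, with capitals marking every match. The Ptp4a1 window (chr9:40718177-40718426, minus strand) is shown because Ptp4a1 changed most among the members. Its 2 matches begin 123 and 21 bases before the start. The Ptp4a2 window (chr5:147465364-147465613, plus strand) is shown as that of the closest relative on the array, and the Ptpn1 window (chr3:177057483-177057732, plus strand) as that of a gene lower at 4 h. Neither holds a match. The Ppp1r15a window (chr1:105139597-105139846, minus strand) is shown for its palindrome, which begins 66 bases before the start. Matches also lay in windows of tested genes that were not called against 0 h in either fit. These include the palindromes of Ppp1r15a and Ptprs, and 2 copies of the shorter form in Ptpn23, Ptpra and Ptprn. Whether a match goes with a change in intensity was not tested. A match describes the letters only, and a window without one says nothing about binding by CREB.
Ptp4a1: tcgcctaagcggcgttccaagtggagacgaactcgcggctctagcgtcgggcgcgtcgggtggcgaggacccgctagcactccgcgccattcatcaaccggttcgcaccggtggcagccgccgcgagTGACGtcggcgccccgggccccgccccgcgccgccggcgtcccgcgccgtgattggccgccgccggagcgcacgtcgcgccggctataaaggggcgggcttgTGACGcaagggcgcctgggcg
Ptp4a2: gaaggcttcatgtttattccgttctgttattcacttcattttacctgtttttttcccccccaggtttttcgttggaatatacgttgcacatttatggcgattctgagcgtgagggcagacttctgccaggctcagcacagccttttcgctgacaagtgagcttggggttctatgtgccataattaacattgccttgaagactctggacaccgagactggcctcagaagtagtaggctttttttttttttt
Ptpn1: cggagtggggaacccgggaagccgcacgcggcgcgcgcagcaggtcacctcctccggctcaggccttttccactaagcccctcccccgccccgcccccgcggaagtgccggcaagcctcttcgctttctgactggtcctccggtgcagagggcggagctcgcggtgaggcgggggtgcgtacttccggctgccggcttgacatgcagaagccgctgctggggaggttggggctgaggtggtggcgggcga
Ppp1r15a: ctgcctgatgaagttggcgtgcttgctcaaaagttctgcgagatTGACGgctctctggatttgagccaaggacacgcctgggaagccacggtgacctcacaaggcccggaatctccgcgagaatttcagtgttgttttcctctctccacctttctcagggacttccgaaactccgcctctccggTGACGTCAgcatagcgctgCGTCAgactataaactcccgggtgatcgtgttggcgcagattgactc

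Intensities are given after scaling every array to a 75th percentile of 107. Values under 13.4 (the floor) were set to it before log2 was taken, and a probe set was tested where its mean over all arrays reached 31.9. The Sertoli markers were present, as Clu ran from 6779 to 13782 and Shbg from 582 to 911 over the arrays. The summed Sertoli list ran from 11380 to 20638, the endothelial list from 83.1 to 192, and the macrophage and leukocyte list from 163 to 257. The peritubular myoid list lay between 1302 and 2299 except on the 24 h replicate 1 array, at 5240. The 2 numbers stood apart in germ cell markers, whose summed intensity was 336 to 1148 on replicate 1 arrays and 2407 to 2738 on replicate 2 arrays, with Akap4, Odf1 and Tnp2 at the floor on every array. They also differed in the ratio of 3′ to 5′ actin probe sets, at 0.928 to 1.17 and 1.48 to 1.76. The spiked CreX control, in deposited intensity, read 16221 on the 0 h replicate 1 array against 6677 to 8260 on the other replicate 1 arrays. Arrays of 1 number deviated together, so a second fit with the number as a block (the paired fit) is given where it changed a call, as are values without single arrays.

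Ptp4a1 was the only member called at 2, 4 or 8 h against 0 h without the block. It was 1 of 53 tested probe sets at each time, beside 0.676%, 0.856% and 0.766% of all 4439 tested probe sets. At 24 h no member was called, as was no probe set at all (0%), while 3 members and 4.6% of all probe sets had an unadjusted p under 0.05. In the paired fit 1 member was called at 2 h, 5 at 4 h, 2 at 8 h and 0 at 24 h, beside 1.22%, 2.95%, 2.68% and 0.0901% of all probe sets. The F test over the 4 later times called 1 member (0.991% of all probe sets), Ptp4a1, and the paired F test called 2 (3.22%), Ptp4a1 and Ppp2cb. The comparisons with 0 h share the control arrays, so they are not independent of each other.

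The members as a whole went both ways from their 0 h level. The median size of the log2 change, without its sign, was 0.26, 0.40, 0.43 and 0.35 at 2, 4, 8 and 24 h, against 0.28, 0.31, 0.36 and 0.31 over all tested probe sets. The median signed log2 change of the 53 probe sets was 0.04 at 2 h, 0.07 at 4 h, 0.14 at 8 h and -0.03 at 24 h, against -0.02, -0.03, -0.02 and 0.02 over all tested probe sets. For tyrosine phosphatases the medians were 0.04, 0.09, 0.21 and 0.02, and for serine/threonine phosphatases -0.02, -0.00, 0.13 and -0.07. Members with an unadjusted p under 0.05 numbered 2 at 2 h (4.57% of all probe sets), 9 at 4 h (7.75%) and 5 at 8 h (9.3%). At 4 h these were 3 higher and 6 lower, and the 6 lower were 3 probe sets each of Ptpn1 and Ppp2r2a. Without Ptp4a1 the log2 changes ran from -0.61 to 1.37 at 2 h, from -1.59 to 1.03 at 4 h, from -0.90 to 1.69 at 8 h and from -0.86 to 1.85 at 24 h.

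**Figure D1:**
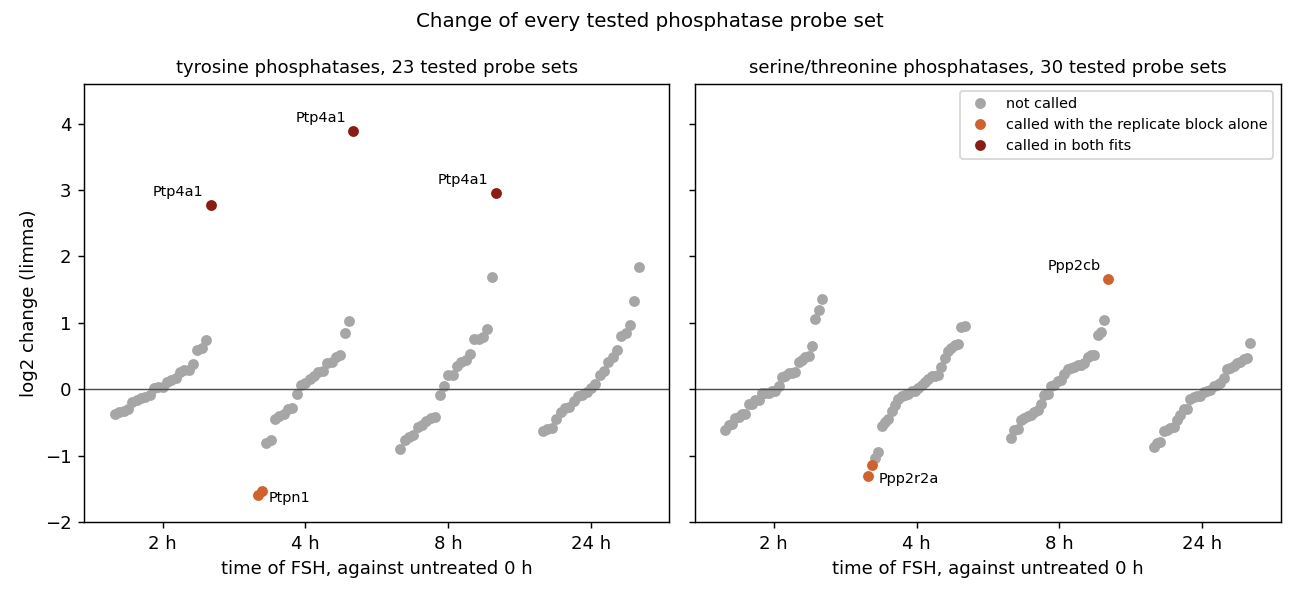
Log2 change against 0 h (vertical axis) of the 53 tested probe sets at 2, 4, 8 and 24 h (horizontal axis, spaced equally), tyrosine and serine/threonine phosphatases apart; each point is 1 probe set. Ptp4a1 stands above the rest at 2, 4 and 8 h, at 2.77, 3.89 and 2.95, and lies at 0.60 at 24 h.

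Ptp4a1 encodes PRL-1, a PRL enzyme first known as an immediate early gene of regenerating liver. Its only probe set, L27843_s_at, is of a type that can match related transcripts. Its intensity was 187 and 290 at 0 h, 2245 and 1123 at 2 h, 4204 and 2826 at 4 h, 1994 and 1616 at 8 h, and 334 and 370 at 24 h (replicate 1, then replicate 2). All 6 arrays from 2 to 8 h lay far above the 4 arrays at 0 and 24 h, and both 4 h arrays lay above all others. Group means were 238 ± 72.6 (SD, n = 2) at 0 h, 1684 ± 794 at 2 h, 3515 ± 975 at 4 h, 1805 ± 267 at 8 h and 352 ± 25.7 at 24 h.

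Ptp4a1 rose by 2.77 ± 0.42 on the log2 scale at 2 h (SE; 6.82-fold; limma adjusted p = 0.0184). The rise was 3.89 at 4 h (14.8-fold; adjusted p = 0.00292) and 2.95 at 8 h (7.71-fold; adjusted p = 0.0126), with the same SE. At 24 h the difference was 0.60 (1.51-fold; adjusted p = 0.996). Within replicate 1 the log2 changes at 2, 4, 8 and 24 h were 3.59, 4.49, 3.41 and 0.84, and within replicate 2 they were 1.95, 3.29, 2.48 and 0.35. The rises were thus larger in replicate 1, whose 0 h array was the lower of the pair. The gene had been singled out in earlier results of the same arrays, which these values do not support independently.

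The calls rested in part on single arrays. The 2 h call was lost without 0 h replicate 1 (adjusted p = 0.127), 0 h replicate 2 (0.0780) or 2 h replicate 1 (0.215). The 4 h call was lost without 4 h replicate 1 (0.0553), and the 8 h call without 0 h replicate 1 (0.0900), 8 h replicate 1 (0.161) or 8 h replicate 2 (0.0789). The log2 change stayed between 2.27 and 3.27 at 2 h, 3.57 and 4.20 at 4 h, and 2.63 and 3.26 at 8 h. The paired fit of all arrays also called Ptp4a1 at 2, 4 and 8 h. With single arrays left out of that fit, the change stayed between 2.24 and 3.30 at 2 h. It stayed between 3.36 and 4.42 at 4 h, and between 2.42 and 3.48 at 8 h. Without the filter on dim probe sets, which adds probe sets to the adjustment, the 2 h and 8 h calls were also lost (adjusted p = 0.105 and 0.0760), and so they were with only the arrays of the 2 times compared (0.116 and 0.0591).

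Between successive times Ptp4a1 differed by 1.12 from 2 to 4 h (log2; unadjusted p = 0.0259), by -0.94 from 4 to 8 h (unadjusted p = 0.0518) and by -2.35 ± 0.42 from 8 to 24 h. No member was called in these 3 comparisons without the block, beside 0%, 0% and 0.225% of all probe sets. Unadjusted p-values under 0.05 numbered 4, 5 and 4 members, beside 3.6%, 3.42% and 6.49%. The paired fit called none from 2 to 4 h or from 4 to 8 h (0% and 0.0901% of all probe sets) and 1 from 8 to 24 h (1.15%). That member was Ptp4a1, which fell by 2.35 (5.10-fold lower; adjusted p = 0.0758 unpaired and 0.0176 paired). With each array left out, the paired call held in 4 of 10 cases.

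The summed intensity of the Leydig cell marker list (10 probe sets) was also highest at 4 h. It was 135 to 261 at 0 h, 795 to 876 at 2 h, 1425 to 1719 at 4 h, 969 to 993 at 8 h and 405 to 441 at 24 h. Of its 3 tested probe sets, 2 were called higher at 2, 4 and 8 h, both of Star, a cholesterol transporter that cAMP also raises in other cells. The third tested probe set, of another gene on the list, was not called. The median log2 change of the 3 was 0.91 from 2 to 4 h and -0.84 from 4 to 8 h. Cyp17a1 and Cyp11a1, also on the list, reached at most 17.6 and 17.9 on any array, near the floor. The part of Leydig cells in these readings was not tested.

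Ptp4a2, which encodes PRL-2, had 1 probe set. Its intensity was 510 and 415 at 0 h, 638 and 474 at 2 h, 822 and 521 at 4 h, 987 and 614 at 8 h, and 587 and 639 at 24 h. Within each replicate the level climbed at every step from 0 to 8 h, and all arrays at 4, 8 and 24 h lay above both controls. The log2 differences were 0.26, 0.51, 0.76 and 0.41 (SE 0.38), and none was called in either fit (at 8 h paired adjusted p = 0.226, with 0.95 within replicate 1 and 0.57 within replicate 2).

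**Figure D2:**
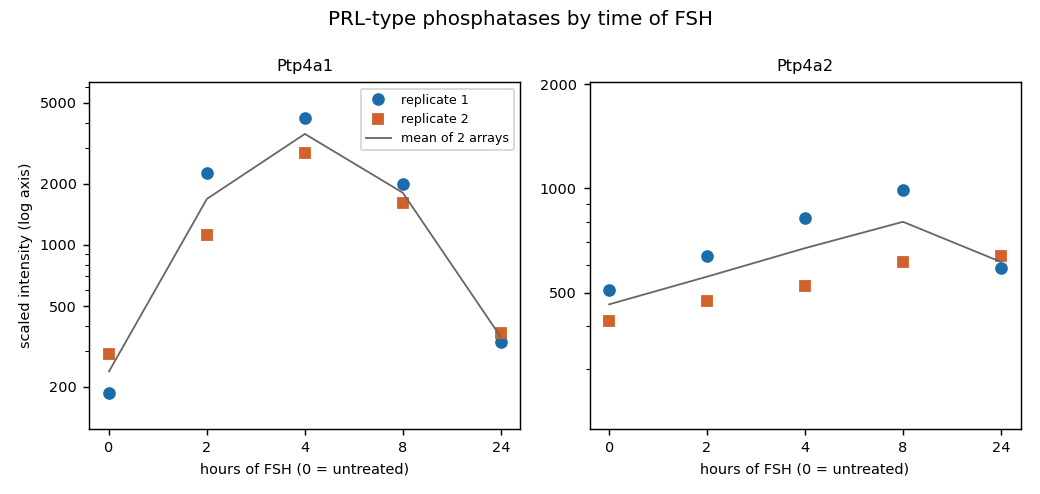
Scaled intensity on a log axis (vertical) of Ptp4a1 and Ptp4a2 at 0, 2, 4, 8 and 24 h (horizontal axis, spaced equally), with 1 point per array and the group mean. The Ptp4a1 arrays peak at 4204 and 2826 at 4 h, while all Ptp4a2 arrays lie between 415 and 987.

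Among the non-receptor enzymes, Ptpn1 was lower at 4 h. Ptpn1 encodes PTP1B, which is held at the endoplasmic reticulum and acts on the insulin and leptin pathways. Its probe set M33962_at read 112 and 101 at 0 h, 80.3 and 92.1 at 2 h, 30.4 and 41.1 at 4 h, 106 and 95.4 at 8 h, and 124 and 93.0 at 24 h. Both 4 h arrays lay below every other array, and the 8 h arrays were close to the controls again. The change at 4 h was -1.59 ± 0.32 on the log2 scale, at an adjusted p of 0.0626 without the block and 0.0259 in the paired fit.

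The probe set M33962_g_at carries the same sequence name and is no independent measure. It read 1642 and 817 at 0 h, 1071 and 1116 at 2 h, 440 and 369 at 4 h, 836 and 616 at 8 h, and 1294 and 719 at 24 h, again lowest on both 4 h arrays. Its change at 4 h was -1.52 ± 0.43 (2.88-fold lower; adjusted p = 0.228, paired 0.0301). A separate probe set, rc_AI113289_s_at, differed by -0.81 at 4 h, with 88.3 and 81.8 against 187 and 119 at 0 h, and was not called. Unlike M33962_at it was still low at 8 h, at 84.0 and 99.0, and read 135 and 144 at 24 h. The other Ptpn1 probe sets differed less at 4 h, rc_AI112391_s_at by -0.29 and rc_AI180145_s_at by -0.44, and neither had an unadjusted p under 0.05. Their courses also differed from that of M33962_at. On rc_AI112391_s_at both replicates were lowest at 8 h, at 98.1 and 42.6. On rc_AI180145_s_at both were lower at 4 h, at 40.8 and 56.3 against 66.0 and 64.1 at 0 h, and read 40.6 and 43.5 at 24 h. With each array left out of the paired fit, M33962_at was called in 5 of 10 cases and M33962_g_at in 3 of 10.

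The other non-receptor members were not called at any time. Ptpn12, which encodes PTP-PEST, a phosphatase of focal adhesion proteins, read 32.1 and 43.9 at 0 h, 37.2 and 48.0 at 2 h, 64.4 and 70.6 at 4 h, 63.9 and 62.8 at 8 h, and 34.4 and 32.2 at 24 h. The 4 h and 8 h arrays lay above all others. The log2 difference at 4 h was 0.84 ± 0.36 (adjusted p = 0.585).

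Among the receptor-type members, Ptprn had the largest difference at 24 h of all tested members. It encodes IA-2, a protein of secretory granules that lacks phosphatase activity. It read 76.8 and 102 at 0 h, 71.5 and 69.9 at 2 h, 305 and 106 at 4 h, 630 and 128 at 8 h, and 411 and 246 at 24 h. Replicate 1 was high from 4 h on, while replicate 2 lay clearly above the controls only at 24 h. The log2 differences were -0.32, 1.03, 1.69 and 1.85 (SE 0.73), with adjusted p-values of 0.517 at 8 h and 0.996 at 24 h. At 8 h the change was 3.04 within replicate 1 and 0.33 within replicate 2.

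Ptprf, which encodes the adhesion-linked phosphatase LAR, read 144 and 217 at 0 h, 410 and 225 at 8 h, and 467 and 257 at 24 h. Replicate 1 again carried most of the difference, which was 0.97 ± 0.43 at 24 h and was not called. Ptprn, Ptprf and Ptprm were the 3 members with an unadjusted p under 0.05 at 24 h. Ptprm differed by 0.84 and is named after its value was seen. The 24 h replicate 1 array is also the array with the high myoid list, and its part in these readings was not tested.

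Of the 28 receptor-type probe sets 19 were not bright enough to test. Among them, Ptprh, which encodes SAP-1, a receptor-type phosphatase of epithelial cells, was singled out after its values were seen. It read 8.22 and 20.2 at 0 h, between 8.71 and 12.8 at 2 and 4 h, 108 and 64.8 at 8 h, and 12.0 and 9.10 at 24 h. The 8 h arrays were the highest, and 7 of the 10 arrays were under the floor. In a fit of all probe sets without the intensity filter the change at 8 h was 2.34 ± 0.28 (adjusted p = 0.0486; 0.0752 paired), a value that depends on the floor. Ptprc, the leukocyte marker CD45, lay under the floor on all arrays with 2 of its 3 probe sets, and reached 46.9 at most with the third.

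**Figure D3:**
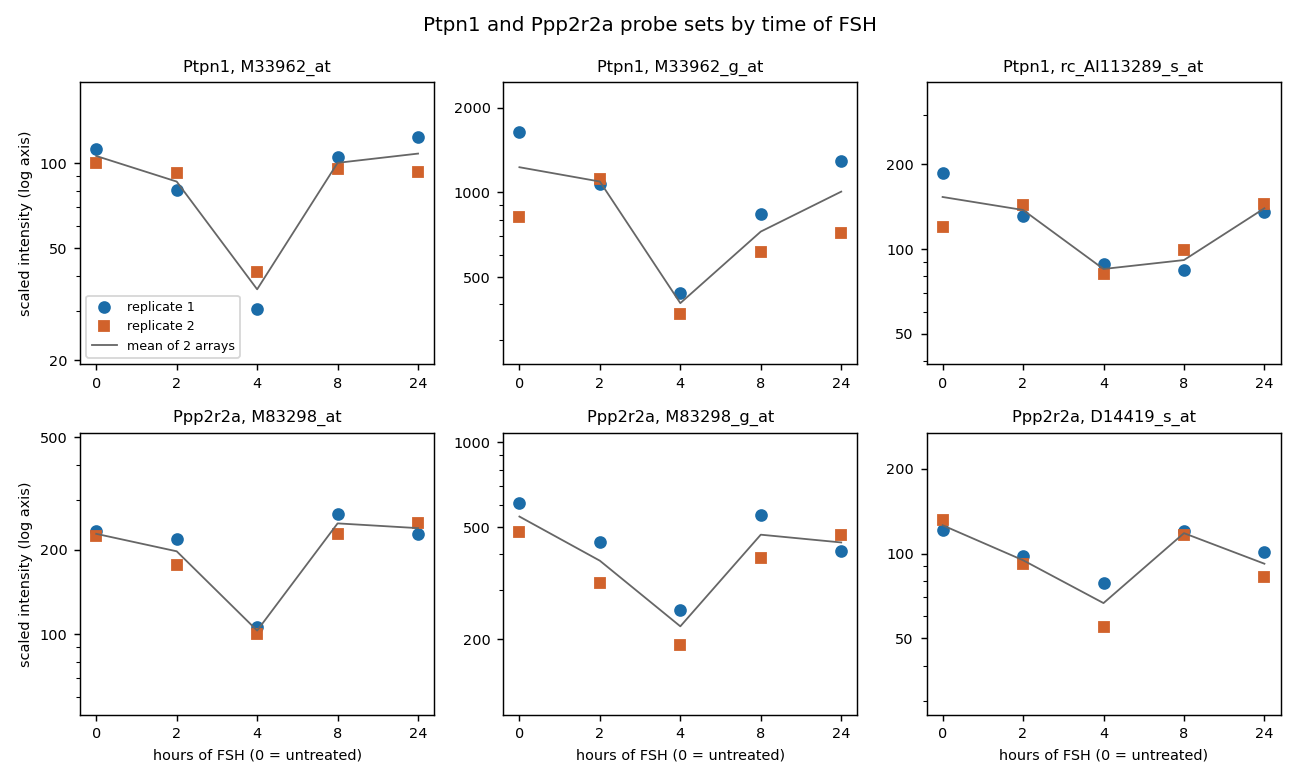
Scaled intensity on a log axis (vertical) at 0, 2, 4, 8 and 24 h (horizontal axis, spaced equally), with 1 point per array. The Ptpn1 and Ppp2r2a probe sets shown are those lower at 4 h with an unadjusted limma p under 0.05. Both replicates dip at 4 h, to 30.4 and 41.1 for Ptpn1 M33962_at and to 106 and 100 for Ppp2r2a M83298_at. Ptpn1 rc_AI113289_s_at is still low at 8 h, at 84.0 and 99.0.

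Among the serine/threonine phosphatases, the PP2A regulatory subunit Ppp2r2a showed a dip at the same time as Ptpn1. Ppp2r2a encodes a B-type subunit that directs PP2A to its substrates. Its probe set M83298_at read 232 and 223 at 0 h, 218 and 176 at 2 h, 106 and 100 at 4 h, 268 and 227 at 8 h, and 227 and 249 at 24 h. The 4 h arrays were the lowest of the 10, with no overlap with any other time. The change at 4 h was -1.14 ± 0.30 (2.21-fold lower; adjusted p = 0.172, paired 0.0485), and it was -1.13 within replicate 1 and -1.15 within replicate 2.

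M83298_g_at, of the same sequence name, read 611 and 479 at 0 h and 254 and 191 at 4 h, again with both 4 h arrays lowest. Its change was -1.30 ± 0.35 (2.46-fold lower; adjusted p = 0.204, paired 0.0342). The third probe set, D14419_s_at, read 121 and 131 at 0 h and 78.7 and 54.7 at 4 h, and its difference of -0.94 ± 0.31 was not called in either fit (adjusted p = 0.346 and 0.156). All 3 probe sets were lower at 4 h on both replicates. The paired calls were fragile, since with each array left out M83298_at was called in 0 of 10 cases and M83298_g_at in 3 of 10.

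Ppp2cb, which encodes the beta catalytic subunit of PP2A, was highest at 8 h. Its only probe set, X16044cds_s_at, is of a type that can match related transcripts. It read 386 and 272 at 0 h, 538 and 390 at 2 h, 787 and 496 at 4 h, 1209 and 865 at 8 h, and 543 and 368 at 24 h. Both 8 h arrays lay above every other array, and each replicate climbed from 0 to 8 h. The log2 changes were 0.50, 0.95, 1.66 and 0.47 (SE 0.40). At 8 h this was 3.16-fold (adjusted p = 0.129, paired 0.00658), with 1.65 within replicate 1 and 1.67 within replicate 2. The paired call held in 8 of 10 fits with 1 array left out and was lost without either 8 h array.

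The alpha subunit, Ppp2ca, is no member because its 2 probe sets also match Ppp2cal1. The probe set rc_AI012595_at read 405 and 338 at 0 h and 736 and 725 at 8 h, and X16043cds_at read 630 and 472 and then 997 and 782. Both 8 h arrays were above both controls on either probe set. The differences of 0.98 ± 0.32 and 0.70 ± 0.39 were not called (adjusted p = 0.325 and 0.683; paired 0.113 and 0.216).

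The other catalytic subunits were not called. Ppp6c, the catalytic subunit of PP6, read 119 and 128 at 0 h and 201 and 234 at 8 h, a difference of 0.81 ± 0.33 (adjusted p = 0.472). The PP1 catalytic subunits showed no shared course. Ppp1ca ran from 753 to 1563 over the arrays, Ppp1cc from 759 to 1180, and Ppp1cb (S78218_at) from 112 to 487, with its lowest reading, 112, and its highest, 487, on the 2 arrays of 2 h. The calcineurin subunit Ppp3ca ran from 55.6 to 167, and Ppp3cb reached at most 15.1 and was not tested.

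**Figure D4:**
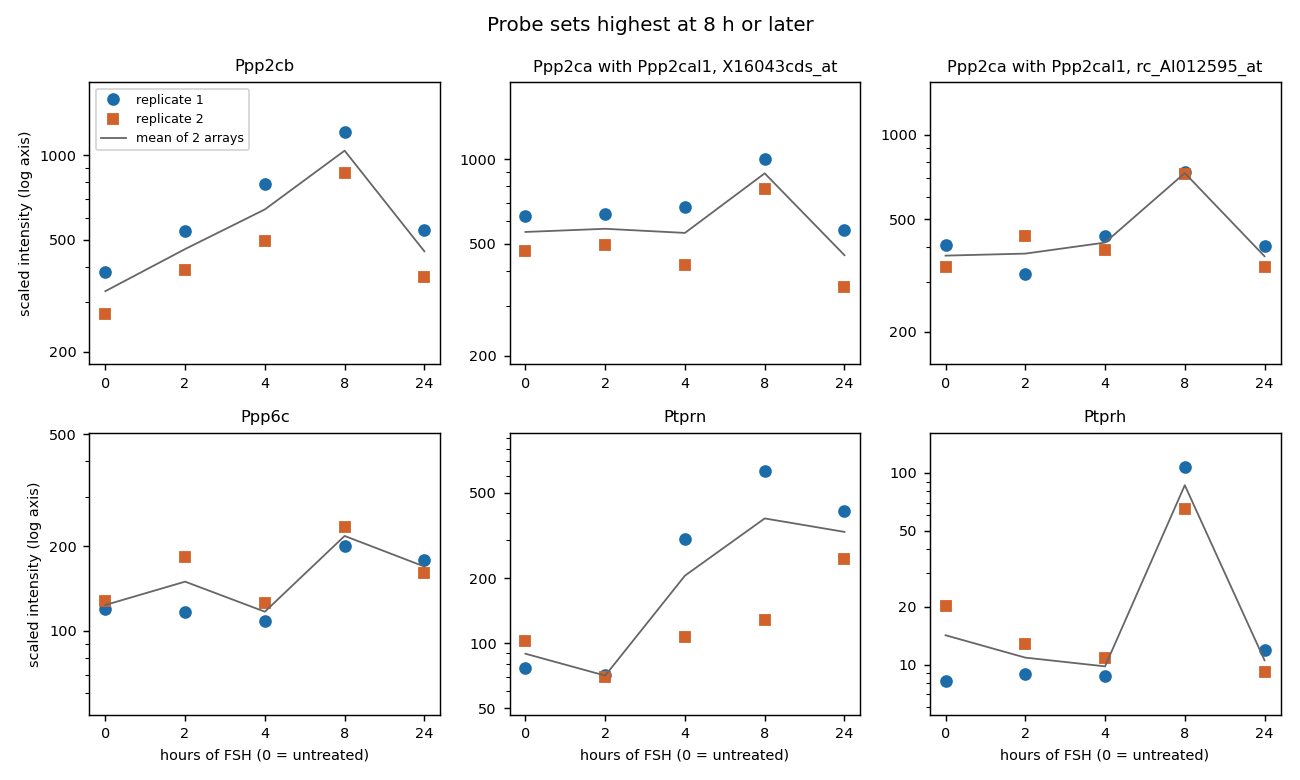
Scaled intensity on a log axis (vertical) of Ppp2cb, Ppp6c, Ptprn, Ptprh and the Ppp2ca probe sets at 0, 2, 4, 8 and 24 h (horizontal axis, spaced equally), with 1 point per array. Ppp2cb is highest on both 8 h arrays, at 1209 and 865, whereas Ptprn reads 630 on one 8 h array and 128 on the other.

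Ppp1r15a, whose promoter holds the palindrome shown above, encodes GADD34, which brings PP1 to the translation factor eIF2 alpha. Its probe set AF020618_at read 110 and 60.4 at 0 h, 288 and 122 at 2 h, 202 and 82.7 at 4 h, 85.4 and 41.1 at 8 h, and 54.4 and 54.9 at 24 h. Within each replicate the 2 h array was the highest, but the groups overlapped because replicate 2 was lower from 0 to 8 h, while the 24 h arrays read alike. The change at 2 h was 1.20 ± 0.59 (adjusted p = 0.999, paired 0.274), with 1.38 within replicate 1 and 1.02 within replicate 2. AF020618_g_at, of the same sequence name, differed by 1.05 ± 0.58. Their paired F tests gave adjusted p-values of 0.0688 and 0.0653.

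Ppp3r1, the regulatory B subunit of calcineurin, read 42.5 and 43.8 at 0 h, 147 and 84.5 at 2 h, 86.3 and 55.4 at 4 h, 99.8 and 79.4 at 8 h, and 39.7 and 39.9 at 24 h on D14568_at. All arrays from 2 to 8 h lay above those at 0 and 24 h. The difference at 2 h was 1.37 ± 0.38, not called in either fit (adjusted p = 0.394, paired 0.132). Its other probe set, D14425_s_at, differed by 0.44 ± 0.65 at 2 h, with 224 and 70.5 against 88.8 and 96.1 at 0 h, so the replicates went opposite ways.

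Among the other PP2A regulatory subunits, Ppp2r1a, the scaffold subunit, ran from 654 to 1181 over the arrays on D14418_at and was not called at any time. Ppp2r2c differed by -0.52, -0.15, -0.74 and -0.86 at 2, 4, 8 and 24 h, and Ppp2r3a by -0.02, -1.03, -0.59 and -0.80, none of them called. Ppp4r3b, the only regulatory subunit of PP4 or PP6 on the array with a single symbol, lay between 22.4 and 51.6.

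Members were also called between the replicate numbers, at a share close to that of all probe sets. In the paired fit 10 of 53 tested members were called between replicate 2 and replicate 1, with 1 higher and 9 lower in replicate 2. Of all 4439 tested probe sets 674 were called (15.2%), with 290 higher and 384 lower. Of the 10, 2 were tyrosine and 8 serine/threonine probe sets. Ppp3r2, the testis-type calcineurin B subunit, was 15.5 to 44.4 (median 22.1) on replicate 1 arrays and 111 to 147 (median 120) on replicate 2 arrays. The sets of 5 arrays did not overlap, and the log2 difference was 2.42 ± 0.26 (adjusted p = 0.000623). The germ cell markers Ldhc (58.5 to 570 against 1007 to 1649) and Hspa2 (48.5 to 162 against 448 to 578) were higher on the same arrays. Of the 8 tested germ cell probe sets 2 were called higher in replicate 2, and their part in the Ppp3r2 difference was not tested.

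Ppp2r1a had the smallest p-value of the 9 lower members. On rc_AA800669_at it read 673 to 1115 on replicate 1 arrays and 368 to 447 on replicate 2 arrays, with no overlap (-1.09 ± 0.17; adjusted p = 0.0031), while D14418_at differed by -0.43 ± 0.18 and was not called (adjusted p = 0.135). Ptpn1 was lower on rc_AI112391_s_at (-0.97 ± 0.18; adjusted p = 0.00828), but differed by -0.02 on M33962_at. Ppp1r10, which holds PP1 in the nucleus, differed by -0.85, Ppp2r5a, a B56-type PP2A subunit, by -0.92, and Ppp1r15a by -0.89 and -0.85 on its probe sets. The remaining 3 were Ppp3r1 D14425_s_at (-0.96), Ppp2cb (-0.53) and Ptprs L19180_g_at (-0.90). Ptprs lies outside the naming rule and completes the count. On the same arrays 6 of 14 tested Sertoli marker probe sets were lower in replicate 2 (Fshr, Gata4, Inha and Wt1), and the actin ratio was higher. The part of either was not tested. The number of members called depended on which single array was left out. It was 16 when this was either of the 0 h arrays and 4 when it was either of the 2 h arrays. It was 3 for each 4 h or 8 h array and 8 for each 24 h array. The share of all probe sets called in these fits was not counted, so the counts cannot be read as particular to the members.

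**Figure D5:**
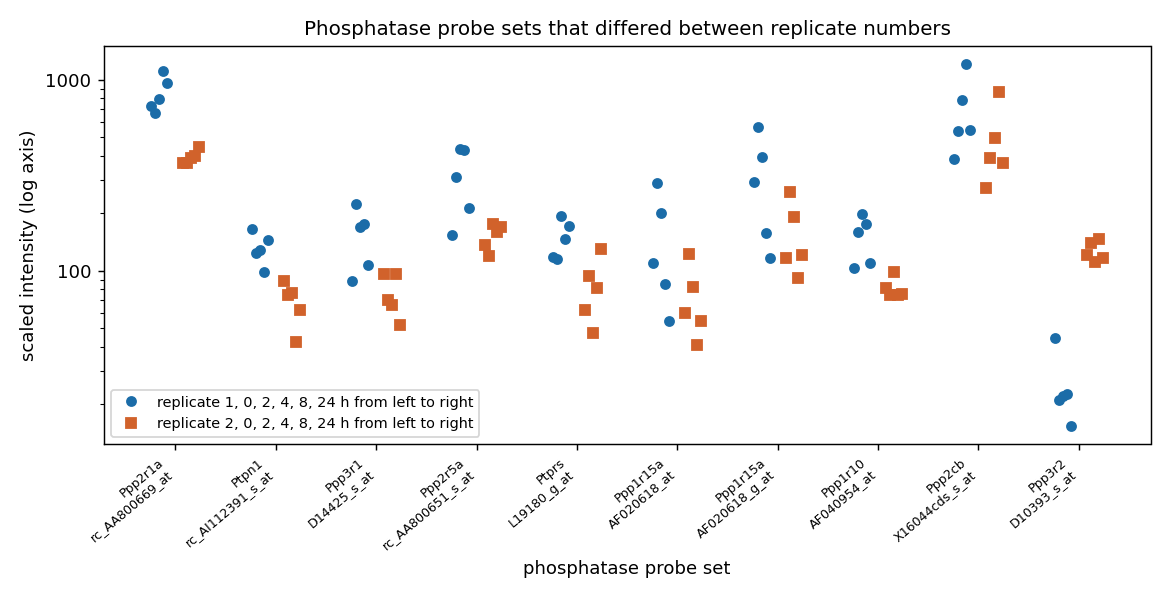
Scaled intensity on a log axis of members called between the replicate numbers, with 1 point per array and the 5 arrays of each number side by side. Ppp3r2 lies at 15.5 to 44.4 in replicate 1 and 111 to 147 in replicate 2, and the other 9 probe sets lie lower on average in replicate 2.

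Phosphatases outside the members were counted from a list of 62 symbols, chiefly dual-specificity, Cdc25, Ppm and Eya enzymes. It had 27 probe sets of 14 genes, of which 18 (10 genes) were tested. At 2 h 2 of the 18 were called higher and none lower, beside 0.676% of all probe sets called. Both were of Dusp1, a nuclear phosphatase that inactivates MAP kinases. Dusp1 S81478_s_at read 25.3 and 21.8 at 0 h, 250 and 241 at 2 h, 148 and 80.5 at 4 h, 48.0 and 69.6 at 8 h, and 74.6 and 34.7 at 24 h. Both 2 h arrays were the highest, 10.5-fold above 0 h (adjusted p = 0.0130), and on S74351_s_at the rise was 12.7-fold (adjusted p = 0.0184). The paired fit called 3 Dusp1 probe sets at 2 h, 3 at 4 h and 1 at 8 h, beside 1.22%, 2.95% and 2.68% of all probe sets. Limma without the block called none after 2 h. In that fit 3, 2 and 1 of the 18 had an unadjusted p under 0.05 at 4, 8 and 24 h. The shares of all probe sets were 7.75%, 9.3% and 4.6%. The list's median log2 changes were 0.34, -0.04, 0.06 and 0.11 at 2, 4, 8 and 24 h.

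Inhibitors and binding partners of phosphatases were counted from a list of 35 symbols, with 24 probe sets of 13 genes, of which 16 (9 genes) were tested. None was called by limma against 0 h at any time in either fit. Without the block 0, 1, 1 and 0 had an unadjusted p under 0.05 at 2, 4, 8 and 24 h. The shares of all probe sets were 4.57%, 7.75%, 9.3% and 4.6%. The list's median log2 changes were -0.17, -0.08, -0.40 and 0.05.

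The members too dim to test numbered 42 probe sets, and 22 genes had no tested probe set. Of the 42, 30 stayed under 31.9 on every array and 6 were under the floor on all 10. Apart from Ptprh, none exceeded 62.4 on any array. A dim reading does not show that a transcript was absent.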

How the data were processed

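Total RNA of rat Sertoli cells was measured on 10 arrays, 1 per sample. The deposited values were linear intensities of 8799 probe sets, made by the authors with software that is not given in the sources used here. No genome build is named in the array files, and array features are given without coordinates. The 59 control probe sets were left out. Each array was divided by 0.911 to 1.13 to share a 75th percentile of 107, values were floored at 13.4 (that percentile divided by 8) and log2 was taken. Of 8740 probe sets, 4439 with a mean of at least 31.9 were tested. Means and SDs are of scaled intensities without the floor. The number of arrays limits the precision.

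The 2 h array without a number was taken as replicate 1, since its partner is labelled 2, and control replicate 1 is a 0 h sample per its description. No 2 arrays held identical values. Same-numbered arrays deviated from their group means together between times in all 10 pairs (correlation from 0.110 to 0.698; 0.205 to 0.608 without the 2 h arrays). The deviations at 0 h correlated least, at 0.110, 0.205, 0.353 and 0.417 with those at 2, 4, 8 and 24 h. Between the later times the lowest value was 0.476. The numbers were taken to pair the samples, most weakly for the control. The pairing comes from the labels' replicate numbers and this check, and not from a stated shared culture.

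The test was that of limma 3.58.1 under R 4.3.3 (lmFit, eBayes with an intensity trend; 5 residual degrees of freedom, 4 with the number as a block) for 7 comparisons of times, an F test over the 4 comparisons with 0 h, and replicate 2 against 1. Benjamini-Hochberg adjustment took in all 4439 probe sets, with calls made below an adjusted p of 0.05. The code was tested on simulated data. Alternatives covered the normalization, floor, filter, variance trend, arrays fitted and the block.

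Symbols came from the platform's annotation, and all 95 member probe sets matched RefSeq (GRCr8) with 0 symbols changed. Probe sets ending in s_at can match related transcripts. Named members were those called in either fit, the Ptp4a genes, those with the smallest F test p (6 tyrosine, 10 serine/threonine), the catalytic subunits of PP1, PP2A and calcineurin, those called between numbers (at most 6 per direction) and the brightest of each role. Members, lists (other phosphatases, inhibitors and partners, and markers of Sertoli, germ, peritubular myoid, Leydig, endothelial, and macrophage and leukocyte cells) and rules were chosen with earlier results of these data known.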

Additional observations from a re-analysis of the deposited data

Results flagged for a closer look

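With the replicate number as a block, Ptp4a1 differed by -2.35 (log2) between 24 h and 8 h, a difference between 2 later times that was tested directly (limma adjusted p = 0.0176, against 0.0758 without the block). Both 24 h arrays (334 and 370) lay below both 8 h arrays (1994 and 1616).

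Ptprh, which was too dim on average to be tested, had a mean intensity of 86.3 at 8 h against 8.22 and 20.2 on the untreated arrays. It was found by searching the 42 members under the intensity filter. Of the 18 sets of 5 same-numbered arrays searched for an array far from the others, 0 had one.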

How the results depend on the processing

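No result changed direction under any alternative run. With the replicate number as a block the members called were 5 at 4 h, 2 at 8 h, 1 from 8 to 24 h and 2 by the F test, and the pairing changed no other call of a member against the fit without it. Without the filter on dim probe sets they were 0 at 2 h, 2 at 4 h (Ptp4a1, and Ppp2r2a M83298_at at an adjusted p of 0.0443), 1 at 8 h (Ptprh in place of Ptp4a1), 0 by the F test and 4 between the replicate numbers, with Ptp4a1 at an adjusted p of 0.105 at 2 h and 0.0760 at 8 h. More probe sets are adjusted over in that fit. Values as deposited gave 4 between the numbers. With only the arrays of the 2 times compared, 0 were called at 2 h and 0 at 8 h (Ptp4a1 at 0.116 and 0.0591), a fit with fewer arrays. Leaving out each array in turn gave 0 to 1 member at 2 h, 0 to 1 at 4 h, 0 to 1 at 8 h, 1 by the F test each time and 3 to 16 between the numbers. With the block as well, a choice made after seeing the data, it gave 1 to 5 at 4 h and 0 to 3 at 8 h. Ptp4a1 was called at 4 h in 9 of 9 other alternatives and at 2 h and 8 h in 7 of 9 each. Apart from the block with all arrays, the alternatives counted members alone, with no share over all probe sets beside them. Signal near the floor limits Ptprh and the dimmer members, and the cause of the other differences was not tested.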
